A study of Rattus norvegicus with 24 samples.

Results

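Solute carriers are the membrane proteins that move nutrients, ions, metals, nucleotides and metabolites into and out of cells and between the compartments of a cell. In the liver, carriers of the sinusoidal membrane take up amino acids, drugs and organic anions from the blood, and those of the inner mitochondrial membrane join the cytosol to the urea cycle, lipogenesis and respiration. Most families work as exchangers or use the sodium or proton gradient, and several need a partner protein to reach the membrane.

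The carriers described here were chosen by their signal: array probes named for a solute carrier that lay well above background on all 24 liver arrays. Of 416 such probes (335 genes) on the array, 200 met this limit. A list of 13 genes, among them the glucose, bile acid and fatty acid carriers Slc2a2, Slc10a1 and Slc27a5, was left out by name. This removed 15 of these probes and left 185 probes of 162 genes. The array held 30367 non-control probes in all, and 14045 of them were above background on every array. A probe counted as above background where at least 0.5 of its spots did; 174 of the 185 had every spot above background on every array. A level is log2 of the probe's intensity minus the 75th percentile of its array, so levels compare samples for 1 probe and not 1 gene with another. A gene with several probes is given by the probe with the highest mean.

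All rats were male Wistar and ate a semi-synthetic diet with 1% cholesterol for 42 days. The Ch rats ate this diet alone, the ChGENE rats with 5% lyophilised Geneva kiwifruit (*Actinidia arguta*), and the ChHAYW rats with 5% lyophilised Hayward kiwifruit (*Actinidia deliciosa*). There were 8 single-colour arrays of whole liver RNA a diet, and no group without cholesterol was analysed here. The sources used here do not give the age of the rats. In whole liver, fewer cells of a type and less RNA per cell cannot be told apart.

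Over the 14045 probes above background everywhere, 3 of the 276 possible pairs of arrays lay close together: Ch 1 with Ch 2, ChGENE 4 with ChGENE 5, and ChHAYW 6 with ChHAYW 7. The standard deviation (SD) of their log2 differences was 0.180 to 0.218, which is 0.934 to 1.00 times the error that the scan software gave the spots. The other 273 pairs differed by an SD of 0.345 to 1.13, at least 1.62 times that error. The labels and the study's methods describe 8 biological replicates a diet. Here each close pair was averaged and counted as 1 sample, which left 7 samples a diet, named Ch 1-2, ChGENE 4-5 and ChHAYW 6-7 where averaged. Counts with all 8 arrays taken as separate rats are given beside the main ones. The tests measure the spread between these samples.

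**Figure D1:**
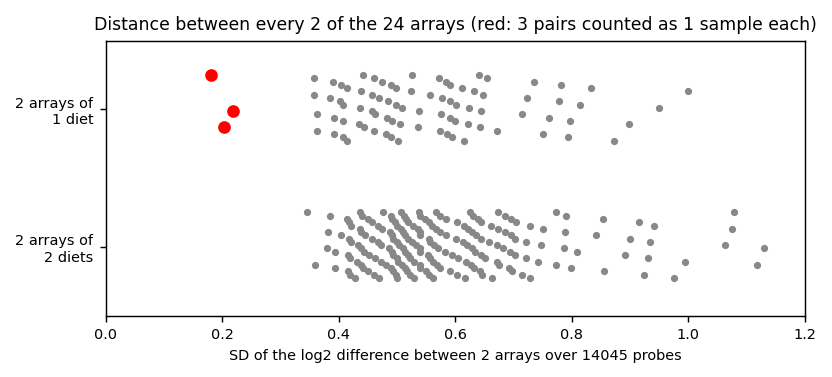
Each dot is 1 pair of the 24 arrays; the x axis is the SD of the log2 difference over 14045 probes, with pairs from 1 diet above and pairs from different diets below. The 3 red pairs, 1 in each diet, lie at 0.180 to 0.218 and were counted as 1 sample each; all other pairs lie at 0.345 or above.

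Each diet was hybridised on 1 slide of its own, which means that a diet effect and a slide effect cannot be told apart. The 75th percentile of intensity was 187.8 to 652.8 in Ch, 387.9 to 775.4 in ChGENE and 408.5 to 1049.2 in ChHAYW. Ch 4 was the dimmest array, with 49.7% of probes above background, and held the highest or lowest level of the 21 samples for 56 of the 162 carriers. ChGENE 4-5 was next with 44 carriers, and the other 19 samples held 5 to 23 each. All 8 hepatocyte markers (Alb, Apoa1, Ttr and others) were above background on every array, and so were 5 of 6 Kupffer cell, 6 of 6 endothelial and 5 of 7 red blood cell markers. Of the 8 hepatocyte markers 3 (Alb, Ttr and Tf, at -0.49 to -0.54) met the unadjusted rule given below in both kiwifruit groups against Ch. Apoa1, Serpina1 and Hnf4a went the other way, at 0.22, 0.02 and 0.01 in ChGENE and 0.04, 0.05 and 0.15 in ChHAYW. Cps1 and Tat differed by -0.34 and -0.36 in ChGENE and by 0.19 and -0.34 in ChHAYW. The median difference of the Kupffer cell markers was 0.52 in ChGENE and 0.37 in ChHAYW, and 0 of the 6 met the rule in either group. Among them Cd163 differed by 0.07 (SE 0.30) and -0.18 (SE 0.25). The part of these marker differences in the carriers' values was not tested.

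For the carriers on which the results turn, the first 30 of the 60 bases of the array probe are shown, 5′ to 3′, so that it is clear what was measured. Positions are those of the whole probe on rn4 in the scanner files. Slc25a33 and Slc35a3 are the genes whose ChGENE and Ch samples did not overlap, and Slc4a1 had the largest fold change of ChGENE against Ch.
Slc4a1, chr10:91455352-91455411, minus strand: agccctcatgagagacttgctgtgtccaac
Slc25a33, chr5:166836558-166836617, minus strand: tttaacttaagaggattgaggattaagcag
Slc35a3, chr2:212903007-212903066, minus strand: actggctctaatgaggtttaccatcatttc
Slc22a23 and Slc28a2 are shown with all their member probes because these did not move alike.
Slc22a23 brighter probe, chr17:37049409-37049468, plus strand: attcacagctgcgtgtctgcatggtgtcgc
Slc22a23 other probe, chr17:37046827-37046886, plus strand: ttcaggatcgtccttttgtacttgatctgg
Slc28a2 brightest probe, chr3:109201163-109201222, minus strand: tgttcccagaggtgctgaaactgactgtgt
Slc28a2 other probe, chr3:109352431-109352490, minus strand: acacaaatttcaccaacagaacctatgaga
Slc28a2 probe of least difference, chr3:109350637-109350696, minus strand: ttgggcagggatggaggtgagggaatatat
The brightest Slc28a2 probe lies apart from the other 2 on chromosome 3 and matched no RefSeq transcript, so that its gene rests on the array's own naming. The same holds for the probes of Slc25a13 and Slc25a23 described below.

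None of the 185 carrier probes passed the test of ChGENE against Ch, and neither did any other probe of the array. A probe was called at a Benjamini-Hochberg adjusted p under 0.05 in limma with a change of at least 1.3-fold. That rule called 0.0% of the 30367 probes in ChGENE against Ch, 0.0% in ChHAYW against Ch and 0.0% in ChGENE against ChHAYW. The smallest adjusted p of a carrier was 0.0951, 0.222 and 0.731 in that order. With every array counted as a rat, 97, 0 and 2 probes were called, and still none of the 185; 2 carriers left out here by name, Slc27a5 and Slc2a1, were among those called. Leaving out Ch 3 alone gave 5 called carriers in ChGENE against Ch, all lower in ChGENE: Slc4a1, Slc25a33, Slc25a37, Slc22a23 and Slc31a1. That is 2.70% of the carrier probes, beside 4745 called probes in all (15.6%) in the same setting. Scaling the arrays to their median called 3409 probes (11.2%) in ChGENE against Ch, among them 3 of these 5 (1.62% of the carrier probes), Slc4a1, Slc25a33 and Slc22a23. No other sample left out gave a call among the carriers.

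Below the adjusted test the carriers were counted against all probes. An unadjusted p under 0.05 in limma with a change of at least 1.3-fold was met in ChGENE against Ch by 11 carrier probes (5.95%), against 23.1% of all probes. Of the 11, 2 were higher in ChGENE (1.08%) and 9 lower (4.86%), beside 2.44% and 5.99% of the probes above background on all arrays. In ChHAYW against Ch 16 carrier probes met it (8.65%), against 18% of all probes. Of these, 5 were higher in ChHAYW (2.70%) and 11 lower (5.95%), beside 1.87% and 5.49%. In ChGENE against ChHAYW 13 carrier probes met it (7.03%), against 4.07% of all probes. Of these, 7 were higher in ChGENE (3.78%) and 6 lower (3.24%), beside 2.19% and 2.18%. The shares of carriers lay on both sides of those of the bright probes. With no limit on the fold, 15, 17 and 17 carrier probes (8.11%, 9.19% and 9.19%) had an unadjusted p under 0.05 in limma, beside 11%, 9.03% and 6.96% of the bright probes.

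These counts moved with single samples. In ChGENE against Ch the count was 19 without Ch 3 and with all arrays as rats. In ChHAYW against Ch it was 9 without Ch 7, 10 without Ch 4, ChHAYW 6-7 or ChHAYW 8, and 28 with all arrays as rats. In ChGENE against ChHAYW it was 6 without ChHAYW 8, 7 without ChHAYW 1 or ChHAYW 6-7, 20 without ChGENE 1, 21 without ChHAYW 5 and 25 with all arrays as rats. Without Ch 4 the first count was 14 and without ChGENE 4-5 it was 15.

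Across the 162 genes the median log2 fold change was -0.02 for ChGENE against Ch, -0.05 for ChHAYW against Ch and 0.01 for ChGENE against ChHAYW. The medians of all probes above background on every array were -0.04, -0.04 and -0.001, and those of all probes -0.16, -0.16 and -0.03. The change stayed under 1.3-fold in 136 genes (84.0%), 129 (79.6%) and 136 (84.0%), beside 83.9%, 83.2% and 91.0% of the bright probes. Against Ch, the largest log2 fold changes were -1.30 for Slc4a1 and 1.02 for Slc30a3 in ChGENE against Ch, and 0.89 for Slc3a2 in ChHAYW against Ch. When the arrays were scaled to their spike-in controls the carrier medians became 0.42, 0.55 and -0.15. The median of all probes moved in the same setting to 0.28, 0.44 and -0.19, so the signs of small changes hold only relative to the 75th percentile.

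**Figure D2:**
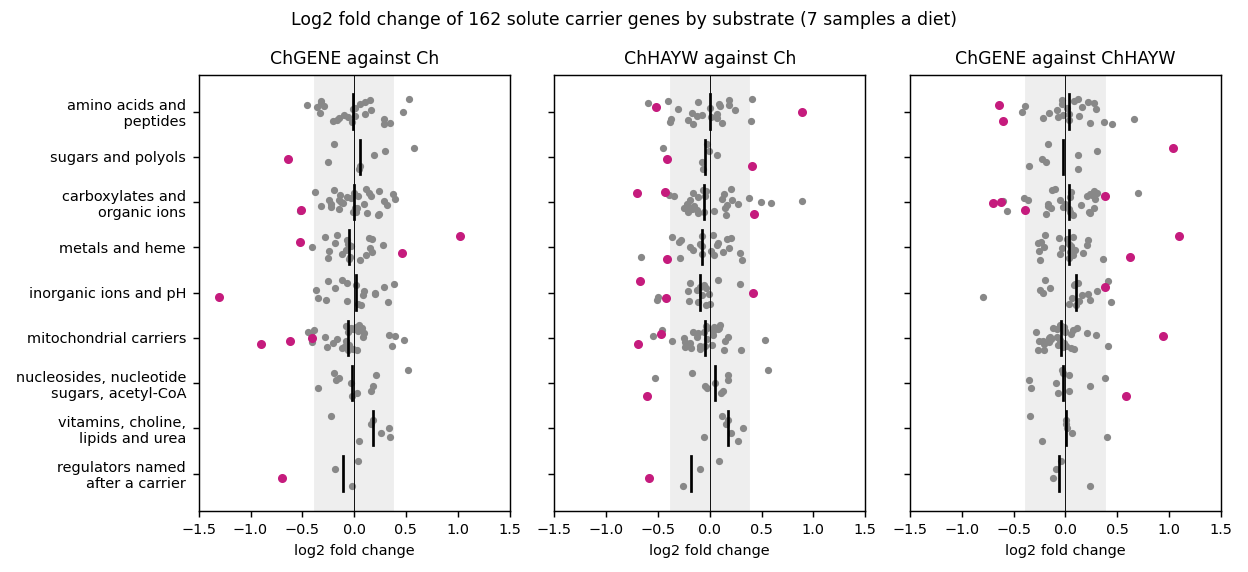
Log2 fold change (x axis) of each of the 162 genes by substrate group (rows) in the 3 diet comparisons. Vertical bars are group medians, the grey band is a change under 1.3-fold, and magenta dots are genes with an unadjusted p under 0.05 and a change past the band; most genes of every group lie inside the band.

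The carriers of amino acids and peptides (25 genes) were centred near 0, with medians of -0.01 in ChGENE against Ch and 0.0005 in ChHAYW against Ch. Slc38a4 is a sodium-coupled carrier of neutral and cationic amino acids of the hepatocyte. Its lowest, median and highest levels were 5.76, 6.00 and 6.78 in Ch, 5.58, 5.76 and 6.12 in ChGENE, and 5.25, 5.61 and 6.23 in ChHAYW. The 3 ranges overlapped. The log2 fold change was -0.36 (standard error, SE, 0.18, adjusted p = 0.222) in ChGENE and -0.52 (SE 0.20, adjusted p = 0.222) in ChHAYW, both against Ch. Slc3a2, the heavy chain that carries the L-type amino acid exchangers to the membrane, ranged from 0.78 to 3.37 in Ch, from 1.57 to 3.29 in ChGENE and from 2.01 to 3.31 in ChHAYW. Its medians of 1.69, 2.32 and 2.66 put Ch lowest, although the highest single level was also a Ch sample. The change was 0.89 (SE 0.36, adjusted p = 0.222) in ChHAYW and 0.47 (SE 0.39) in ChGENE. Slc7a2, the cationic amino acid carrier that brings arginine into the hepatocyte, differed by 0.35 (SE 0.21) in ChGENE and 0.11 (SE 0.25) in ChHAYW. The glutamine carrier Slc38a3 differed by -0.29 (SE 0.26) and 0.10 (SE 0.27). The glycine carrier Slc6a9 was the amino acid carrier named for ChGENE against ChHAYW, at -0.60 (SE 0.25, adjusted p = 0.912). Background correction with normexp moved the medians of this group to -0.17 in both comparisons with Ch.

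**Figure D3:**
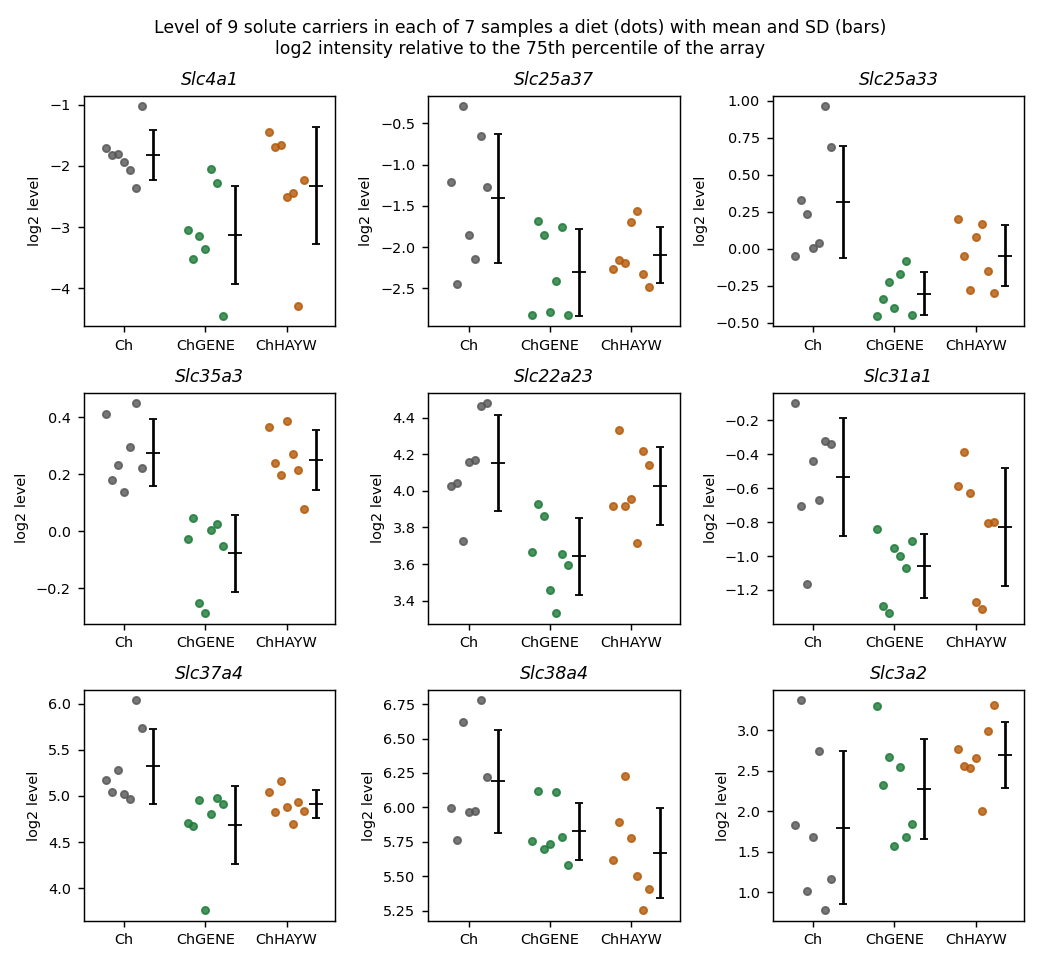
Level (y axis, log2 intensity relative to the 75th percentile of the array) of 9 carriers in each of the 7 samples a diet; dots are samples and bars are mean and SD. All 7 ChGENE samples lie below all 7 Ch samples for Slc25a33 and Slc35a3, and the groups overlap for the other 7 genes.

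Among the carriers of sugars and polyols (8 genes), Slc37a4 had the smallest p in ChGENE against Ch. In ChHAYW against Ch it came next after Slc50a1. Slc37a4 is the glucose 6-phosphate translocase of the endoplasmic reticulum, which feeds glucose 6-phosphatase in the last step of glucose release. Levels ran from 4.97 to 6.04 (median 5.17) in Ch, from 3.76 to 4.98 (median 4.80) in ChGENE and from 4.70 to 5.17 (median 4.88) in ChHAYW. Only the top of ChGENE reached the lowest Ch sample. The change was -0.64 (SE 0.22, adjusted p = 0.0984) in ChGENE and -0.41 (SE 0.18, adjusted p = 0.233) in ChHAYW; without ChGENE 4-5 the former was -0.48. The fructose carrier Slc2a5 differed by 0.58 (SE 0.28) in ChGENE against Ch and by 1.04 (SE 0.40, adjusted p = 0.880) in ChGENE against ChHAYW. Slc50a1, a sugar carrier of the SWEET family, differed by 0.40 (SE 0.16, adjusted p = 0.222) in ChHAYW against Ch. The group's medians were 0.05 and -0.05 against Ch.

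The largest group, the carriers of carboxylates and organic ions (33 genes), had medians of -0.01 and -0.05. The organic anion carrier Slc22a7 differed by 0.13 (SE 0.15) and -0.11 (SE 0.15), and the monocarboxylate carrier Slc16a1, which moves lactate and ketone bodies, by 0.37 (SE 0.22) and 0.14 (SE 0.22). Slc22a23, a family member without a settled substrate, gave the smallest p of the group in ChGENE against Ch. Its levels were 3.73 to 4.48 in Ch (median 4.16), 3.33 to 3.93 in ChGENE (median 3.66) and 3.71 to 4.33 in ChHAYW (median 3.95). Of the 7 ChGENE samples, 5 lay below all Ch samples. The change was -0.51 (SE 0.15, adjusted p = 0.0951).

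The second Slc22a23 probe differed from the first. It gave -0.43 (SE 0.29, adjusted p = 0.382) in ChGENE against Ch, but -0.45 (SE 0.27) in ChHAYW against Ch where the brighter probe gave -0.13 (SE 0.15). For ChGENE against ChHAYW the probes gave 0.02 (SE 0.21) and -0.39 (SE 0.13). Slc16a6 differed by 0.40 (SE 0.19) in ChGENE against Ch. In ChHAYW against Ch, Slc22a8, an organic anion carrier best known from the kidney, differed by 0.42 (SE 0.14, adjusted p = 0.222) and the sodium-dicarboxylate carrier Slc13a2 by -0.44 (SE 0.19, adjusted p = 0.240). Slc17a3, a urate and organic anion carrier, was lower in ChGENE than in ChHAYW by -0.70 (SE 0.22, adjusted p = 0.756).

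Of the carrier probes for metals and heme on the array 71.4% were above background on every array, against 33.3% of those for amino acids. The share was 64.5% for mitochondrial carriers and 78.9% for nucleosides, nucleotide sugars and acetyl-CoA. The 23 genes had medians of -0.05 and -0.07 against Ch. Slc31a1, the high-affinity copper importer, lay at -1.16 to -0.10 in Ch (median -0.44), -1.34 to -0.84 in ChGENE (median -1.0) and -1.31 to -0.39 in ChHAYW (median -0.80). All ChGENE samples lay below 6 of the 7 Ch samples, and Ch 4 lay among them. The change was -0.52 (SE 0.17, adjusted p = 0.0951). Slc39a6, a zinc importer, differed by 0.46 (SE 0.19, adjusted p = 0.138) in ChGENE against Ch, and the zinc exporter Slc30a5 by -0.36 (SE 0.17) in ChHAYW against Ch.

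Slc30a3, a zinc carrier best known from synaptic vesicles, differed by 1.1 (SE 0.35, adjusted p = 0.743) in ChGENE against ChHAYW. It lay at -0.84 to 1.77 in Ch, -0.49 to 2.12 in ChGENE and -0.54 to 0.87 in ChHAYW. The other 6 ChGENE samples lay above every ChHAYW sample, and ChGENE 1 lay among the lowest of all. The magnesium carrier Slc41a2 differed by -0.41 (SE 0.18) in ChHAYW against Ch. Slc39a14, which takes up zinc, manganese and iron not bound to transferrin, differed by 0.15 (SE 0.30) and 0.19 (SE 0.27), and its second probe gave -0.20 and -0.40. Slc30a10, the manganese exporter, was not above background on all arrays and is no member.

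Among the carriers of inorganic ions and pH (19 genes), Slc4a1 stood lowest. Slc4a1 is the anion exchanger AE1, or band 3, the chloride-bicarbonate exchanger and main integral protein of the red cell membrane. Its levels were -2.37, -1.82 and -1.02 (lowest, median, highest) in Ch, -4.45, -3.15 and -2.05 in ChGENE, and -4.28, -2.23 and -1.44 in ChHAYW. Of ChGENE, 5 samples lay below every Ch sample and the other 2 within the Ch range. The change of -1.30 (SE 0.32) in ChGENE against Ch was the largest of all 162 genes, with an adjusted p of 0.0951. The lowest Slc4a1 level, -4.45, was among the lowest of all carrier probes described here. Probes just outside the detection limit had levels of -6.16 to -3.06 in their lowest sample, so the dimmest Slc4a1 samples lay in that range. The phosphate carrier Slc20a2 had levels of 4.10 to 4.49 in Ch and 3.59 to 4.12 in ChGENE, a change of -0.37 (SE 0.13, adjusted p = 0.0952), which is under 1.3-fold. In ChHAYW against Ch, Slc24a6, the sodium-calcium exchanger of the inner mitochondrial membrane that is now named Slc8b1, differed by 0.42 (SE 0.15). Slc4a10, a sodium-coupled bicarbonate carrier, differed by -0.42 (SE 0.16). Slc12a9 was the gene named for ChGENE against ChHAYW, at 0.38 (SE 0.16). Slc4a4, the sodium-bicarbonate cotransporter, differed by -0.07 (SE 0.19) and -0.20 (SE 0.16) against Ch. Of the 19 genes, 16 were below 0 in ChHAYW against Ch and 9 in ChGENE against Ch, with medians of -0.09 and 0.02. The bright probes had medians of -0.04 in both comparisons, and their share below 0 was not counted.

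The mitochondrial carriers (32 genes) held 3 of the 10 genes past the unadjusted rule in ChGENE against Ch, all lower in ChGENE. They were Slc25a33, Slc25a37 and Slc25a29, 9.38% of the group beside 5.99% of all bright probes. Slc25a29, a carrier of basic amino acids outside the rule for named genes, is named because of its value, -0.41 (SE 0.15, adjusted p = 0.117). Slc25a33, a pyrimidine nucleotide carrier, lay at -0.05 to 0.97 in Ch (median 0.24), -0.45 to -0.08 in ChGENE (median -0.34) and -0.30 to 0.20 in ChHAYW (median -0.05). Every ChGENE sample lay below every Ch sample at this probe, narrowly so, with the highest ChGENE at -0.08 and the lowest Ch at -0.05. A second Slc25a33 probe, above background on 23 arrays, missed the limit on Ch 4, and its difference is not given here. The change was -0.62 (SE 0.17, adjusted p = 0.0951) in ChGENE against Ch. Slc25a37, mitoferrin, brings iron into the mitochondria of developing red cells. It lay at -2.44 to -0.29 in Ch (median -1.27), -2.83 to -1.68 in ChGENE (median -2.41) and -2.49 to -1.56 in ChHAYW (median -2.19). Of the Ch samples, 4 lay above every ChGENE and ChHAYW sample, and the other 3 lay among them. The change was -0.90 (SE 0.33, adjusted p = 0.113) in ChGENE and -0.69 (SE 0.30, adjusted p = 0.242) in ChHAYW. Slc25a23 and Slc25a25 are calcium-dependent carriers of ATP-magnesium and phosphate. The former differed by -0.47 (SE 0.19) in ChHAYW against Ch and the latter by 0.94 (SE 0.36, adjusted p = 0.887) in ChGENE against ChHAYW.

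Of the well known mitochondrial carriers of the liver, Slc25a1, Slc25a13 and Slc25a5 are given here, and none of them met the unadjusted rule against Ch. Mitochondrial carriers among the genes left out by name are not covered. The citrate carrier Slc25a1, which supplies acetyl units for fat and cholesterol synthesis, differed by 0.05 (SE 0.23) in ChGENE and 0.10 (SE 0.22) in ChHAYW. With SEs of this size a change of 1.3-fold was not detectable. The aspartate-glutamate carrier Slc25a13 differed by -0.03 (SE 0.15) and 0.09 (SE 0.13), and the ADP-ATP carrier Slc25a5 by 0.03 (SE 0.27) and 0.30 (SE 0.28). The group's medians were -0.06 and -0.05.

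Of the carriers of nucleosides, nucleotide sugars and acetyl-CoA (11 genes), Slc35a3, the carrier that brings UDP-N-acetylglucosamine into the Golgi for glycan branching, had little spread, with an SD within diets of 0.120. It lay at 0.14 to 0.45 in Ch (median 0.23), -0.29 to 0.05 in ChGENE (median -0.03) and 0.08 to 0.39 in ChHAYW (median 0.24). ChGENE lay below both other groups without overlap, while Ch and ChHAYW overlapped nearly whole. The change was -0.35 (SE 0.12, adjusted p = 0.0951) against Ch and -0.33 (SE 0.10, adjusted p = 0.731) against ChHAYW, both under 1.3-fold. Groups did not overlap for 2 carrier probes in ChGENE against Ch (1.08%, beside 0.755% of bright probes), 0 in ChHAYW against Ch (beside 0.15%) and 1 in ChGENE against ChHAYW (0.541%, beside 0.178%).

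Slc28a2, the sodium-coupled purine nucleoside carrier, differed by 0.52 (SE 0.30) in ChGENE and 0.56 (SE 0.28, adjusted p = 0.295) in ChHAYW at its brightest probe, which matched no RefSeq transcript. The other probe shown above gave 0.47 and 0.62, the latter past the unadjusted rule, and the probe of least difference -0.12 and 0.02. Slc43a3, a nucleobase carrier, gave the smallest p of all carriers in ChHAYW against Ch, at -0.61 (SE 0.19, adjusted p = 0.222). It lay at 0.14 to 1.19 in Ch and -0.25 to 0.58 in ChHAYW. The equilibrative nucleoside carrier Slc29a1 differed by -0.20 (SE 0.19) and -0.17 (SE 0.17). Slc35d1 was not above background on all arrays.

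The carriers of vitamins, choline, lipids and urea (7 genes) were the group with the highest medians against Ch, 0.18 in ChGENE and 0.17 in ChHAYW. In each, 6 of 7 genes lay above 0. The bright probes had medians of -0.04 in both comparisons, and their share above 0 was not counted. Slc19a2, named because its probes differ in sign, lay above 0 only at its brighter probe, and its other probe gave -0.05 and -0.02. No gene of the group met even the unadjusted rule. The proton-coupled folate carrier Slc46a1 differed by 0.34 (SE 0.20) and 0.32 (SE 0.20). The riboflavin carrier Slc52a2 had the smallest SD within diets of all 162 genes, 0.116. It lay at -0.91 to -0.54 in Ch, -0.58 to -0.27 in ChGENE and -0.63 to -0.36 in ChHAYW, a change of 0.26 (SE 0.12, adjusted p = 0.175) and 0.20 (SE 0.11). The multivitamin carrier Slc5a6, for biotin and pantothenate, differed by 0.04 (SE 0.16) and 0.27 (SE 0.17), and the reduced folate carrier Slc19a1 by -0.34 (SE 0.17) in ChGENE against ChHAYW.

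Of the 162 genes, 4 carry a carrier's name but encode no carrier. Slc9a3r1 and Slc9a3r2 (now Nherf1 and Nherf2) are scaffolds that tether carriers to the membrane skeleton. Slc9a3r1 lay at -0.70 to 0.14 in Ch (median -0.15), -1.78 to 0.52 in ChGENE (median -1.06) and -1.27 to -0.27 in ChHAYW (median -0.86). The ChGENE range held that of Ch within it. The change was -0.70 (SE 0.30, adjusted p = 0.158) in ChGENE and -0.59 (SE 0.20, adjusted p = 0.222) in ChHAYW. Slc9a3r2 differed by -0.26 (SE 0.18) in ChHAYW against Ch and 0.23 (SE 0.19) in ChGENE against ChHAYW, and Slc7a6os by -0.18 (SE 0.18) in ChGENE against Ch.

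Since Slc4a1 and Slc25a37 are known from the red cell line, the markers of red cells were set beside them. The summed level of the 7 markers on the array was 8.50 to 9.84 in Ch, 8.13 to 9.63 in ChGENE and 8.14 to 9.56 in ChHAYW. In ChGENE against Ch, Hbb differed by -0.14 (SE 0.24), Hbb-b1 by 0.11 (SE 0.28), Hba1 by -0.05 (SE 0.30) and Alas2, the first enzyme of haem synthesis in red cells, by 0.14 (SE 0.38). Epb42 was above background on 0 arrays. Thus 1 of the 7 genes, Slc4a1 itself, met the unadjusted rule. The globins and Alas2 differed by less than their SEs between the group means. Between samples of a diet, the lowest Slc4a1 levels went with low markers: ChGENE 8 and ChHAYW 6-7, at -4.45 and -4.28 for Slc4a1, had the lowest Alas2 of their diets, -0.84 and -0.93. The part of red cell RNA in the Slc4a1 and Slc25a37 values was not tested.

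**Figure D4:**
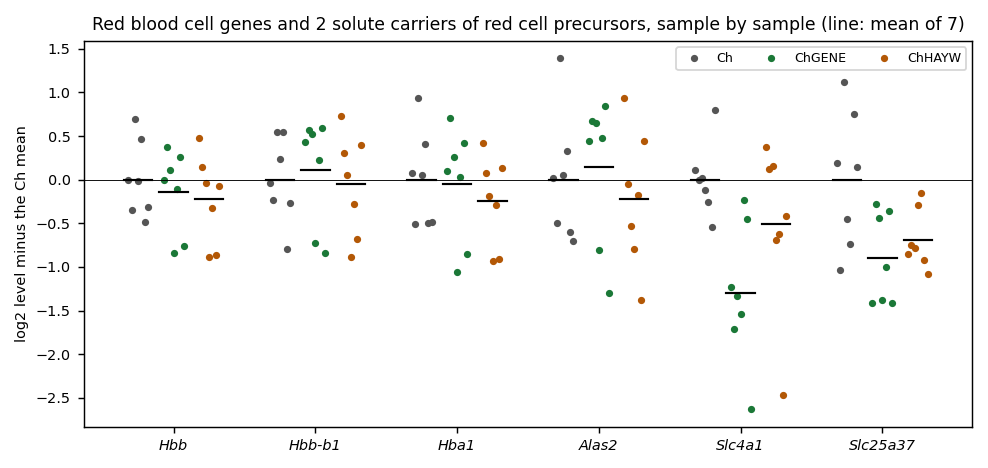
Level of 4 red blood cell markers, Slc4a1 and Slc25a37 in each sample minus the mean of the Ch samples (y axis, log2); dots are the 7 samples a diet and lines their means. The means of the markers lie near 0 in ChGENE, and those of Slc4a1 and Slc25a37 lie at -1.30 and -0.90.

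Spread among rats of 1 diet was as large as most diet differences. The SD within diets of the 162 genes had a median of 0.349 (quartiles 0.273 and 0.495), beside 0.321 over the bright probes. Among the steadiest carriers were Slc52a2, Slc35a3 and Slc25a44, at 0.116 to 0.120. The widest were Slc13a5, Slc17a1 and Slc12a3, which are named because of these values. Slc13a5, the sodium-citrate carrier of the hepatocyte membrane, had an SD of 1.53. Its level was 3.12 in ChGENE 4-5, where the 2 arrays read 3.11 and 3.14, and -4.17 to -1.49 in all other samples. Slc17a1, a phosphate and urate carrier (SD 0.916), was low in 2 Ch samples, and its levels ran from -3.22 to 0.67. Slc12a3, the thiazide-sensitive sodium-chloride carrier, fixed here as a kidney marker (SD 0.813), was lowest in ChGENE 4-5 at -4.09. Of the 7 ChGENE samples, this one was the highest for 37 and the lowest for 36 of the 162 genes. ChGENE 1 was the highest for 29 and the lowest for 34. Such counts were not particular to ChGENE: within their own diets they were 30 and 48 for Ch 4, and 29 and 47 for ChHAYW 5.

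**Figure D5:**
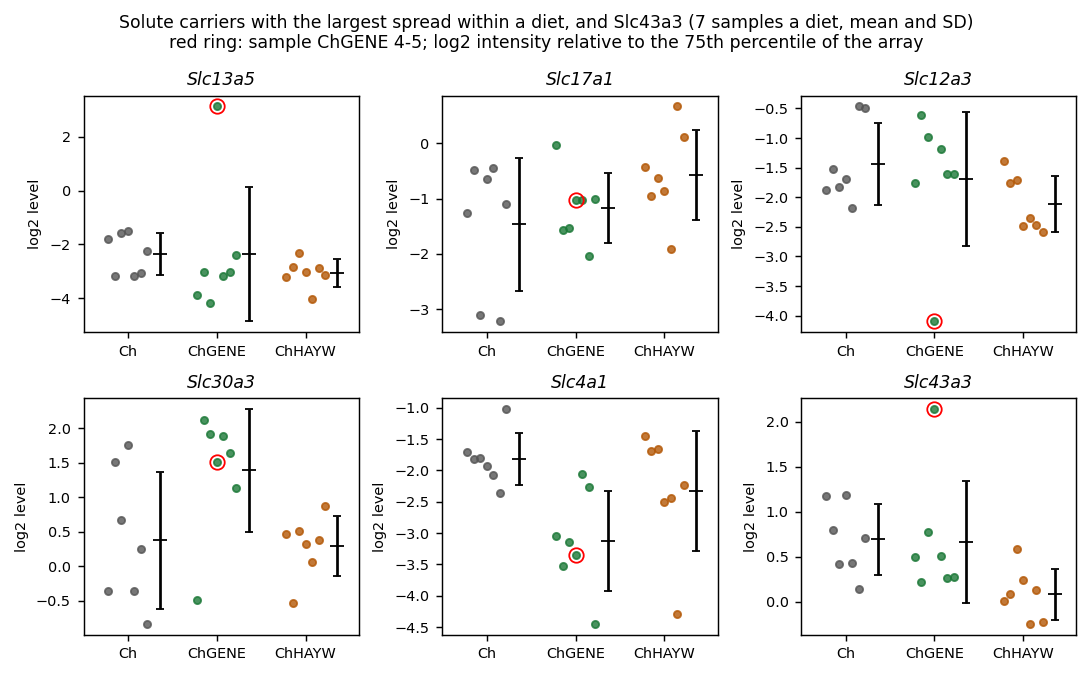
Level (y axis, log2) of 5 carriers with the largest SD within diets and of Slc43a3 in each sample, with mean and SD; the red ring marks ChGENE 4-5. This sample lies at 3.12 for Slc13a5, at -4.09 for Slc12a3 and at 2.14 for Slc43a3, outside the other samples.

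Several probes measured 21 of the genes. Their probes gave opposite signs in 9 genes for ChGENE against Ch, 10 for ChHAYW against Ch and 8 for ChGENE against ChHAYW. The gap between the highest and lowest probe of a gene had a median of 0.17, 0.27 and 0.09. Slc20a2, named above, gave -0.12 and 0.39 at its 2 probes in ChHAYW against Ch, and Slc4a4 gave -0.20 and 0.17.

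The pumps and partners that carriers depend on were taken from lists. Of the sodium pump subunits 5 of 8 were above background on all arrays, and none met the unadjusted rule against Ch; Fxyd2, a modulator of the pump, differed by 0.59 (SE 0.31) in ChGENE. All 9 proton pump subunits were above background everywhere and none met the rule; Atp6v1a, with the smallest p against Ch, differed by -0.24 (SE 0.12) in ChGENE. Among the chaperones and scaffolds Pdzk1, which anchors organic ion carriers, differed by 0.64 (SE 0.20, adjusted p = 0.0951) in ChGENE and -0.01 (SE 0.22) in ChHAYW, both against Ch. Emb, a partner of the monocarboxylate carriers that was above background on 22 arrays, differed by 1.12 (SE 0.68) and 1.08 (SE 0.54). Of the other mitochondrial carriers and channels, the outer membrane channel Vdac1 differed by -0.28 (SE 0.14) and -0.35 (SE 0.12, adjusted p = 0.222), and Ucp1 was above background on 0 arrays. No aquaporin met the rule: the water channel Aqp8 differed by 0.42 (SE 0.36) and 0.48 (SE 0.30), and Aqp4 by -0.31 (SE 0.19) and -0.15 (SE 0.17).

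The limit on detection decided which carriers are described. Of the other carrier probes, 55 were above background on no array and 161 on some. Just outside the limit lay 24 probes above background on 23 arrays; 20 of them missed it only on the dim array Ch 4, 2 on Ch 7 and 2 on ChHAYW 8. Their levels reached from -6.16 to -3.06 in their lowest sample, and their medians over the samples from -4.22 (Slc25a40) to -1.38 (Slc46a3). Just inside it lay the 11 member probes (5.95%) that had some spot not above background on some array. All 185 carrier probes entered the test, with no further filter.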

How the data were processed

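The authors hybridised liver RNA to Agilent 8x60K rat arrays and deposited the single-colour scanner output. Per the file headers, Feature Extraction 10.10.1.1 subtracted background and detrended the intensity of each of 62976 spots; its values equal the deposited value table. The labels name a miRNA labelling kit, the methods a gene expression kit. Spots marked non-uniform or outlying were left out, spots of a probe averaged, and log2 intensity was centred on each array's 75th percentile. The close array pairs were then averaged, a choice made after seeing the data (limit 1.25 times the software's error). Each diet pair was fitted in R 4.3.3 with limma 3.58.1 over 30367 probes; figures used Python 3.11.15. The fit was tested on simulated data with 7 samples a diet, 200 changed probes and noise drawn separately for each probe. The adjusted rule called 42% of 2-fold changes in ChGENE against Ch, 28% in ChHAYW against Ch and 56% in ChGENE against ChHAYW. Of 4-fold changes it called 89%, 77% and 87%. Many 2-fold changes would thus be missed. The array number limits precision. Members, gene lists and tests were chosen with earlier results of these data known. Genes named are the 2 with the smallest p of each substrate group for ChGENE and for ChHAYW against Ch, the 1 for ChGENE against ChHAYW, 14 well known liver carriers, and any gene called; some items are not reported here. Of the 185 probes, 171 matched a RefSeq transcript (GRCr8 names). Alternatives were another background correction, 3 scalings, a filter, other tests, and leaving out each sample.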

Additional observations from a re-analysis of the deposited data

Results flagged for a closer look

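In the 135 groups of 7 samples made by the 45 named carriers and 3 diets, 8 had a highest or lowest sample whose gap to its neighbour, over the group's range, was above Dixon's limit for 7 samples. Chance flags about 1 in 20 groups. Of the 8, 4 were ChGENE 4-5: it was lowest for Slc37a4 at 3.76 (next 4.68) and for Slc50a1 at 0.40 (next 1.42), and highest for Slc39a14 at 1.06 (next -0.03) and for Slc43a3 at 2.14 (next 0.78). Without it, the change of Slc37a4 in ChGENE against Ch was -0.48 in place of -0.64, and that of Slc39a14 -0.04 in place of 0.15. Slc4a1 was lowest in ChHAYW 6-7 at -4.28 (next -2.51), and Slc30a3 in ChGENE 1 at -0.49 (next 1.14); without ChGENE 1, Slc30a3 differed by 1.41 in place of 1.1 between ChGENE and ChHAYW. Slc29a1 was highest in ChGENE 7 at 3.02 (next 2.39), and Slc22a7 lowest in ChHAYW 1 at 3.51 (next 3.88).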

How the results depend on the processing

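Diet and slide coincided, so the slide was not fitted as a block. Over 1608 values of named genes, 46 changed sign, 20 of them with the arrays scaled to their spike-in controls, a setting that moved the median of all probes as the report gives. No carrier was called in any comparison in any setting other than median scaling of ChGENE against Ch (3 carriers) and leaving out Ch 3 there (5; 0 without any other sample). The cause of the changes below was not tested.

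Carrier probes past the unadjusted rule numbered 27 in ChGENE against Ch and 38 in ChHAYW against Ch with spike-in scaling, and 19, 28 and 25 in the 3 comparisons with every array counted as 1 rat, a choice added after seeing the data. Leaving out 1 sample gave 8 to 19, 9 to 24 and 6 to 21. The carrier median became -0.062 in ChGENE against Ch with normexp correction, and 0.42, 0.55 and -0.15 with spike-in scaling.

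Samples with the same replicate number did not deviate together, so the numbers were not taken as pairs. With the replicate number as a block and all 8 arrays a diet, 19, 25 and 23 carrier probes met the unadjusted rule and none was called; Slc4a4 differed by 0.051 in ChGENE. Every array counted as 1 rat gave the same 0.051.

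In ChGENE against Ch, spike-in scaling gave Slc20a2 0.071, Slc7a6os 0.26, Slc4a4 0.37, Slc38a4 0.080, Slc38a3 0.15, Slc35a3 0.088, Slc29a1 0.24 and Slc25a13 0.41. In ChHAYW against Ch it gave Slc38a4 0.081, Slc41a2 0.19, Slc4a10 0.18, Slc37a4 0.19, Slc4a4 0.40, Slc30a5 0.24, Slc22a7 0.49, Slc25a23 0.13, Slc9a3r1 0.015, Slc13a2 0.17, Slc29a1 0.43 and Slc9a3r2 0.34. With normexp, Slc7a2 was at -0.031 in ChHAYW and Slc25a13 at 0.019 in ChGENE. With quantile normalization, Slc25a13 was at 0.016 in ChGENE.

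Leaving out 1 sample turned the sign of 10 named values. In ChGENE against Ch the ranges were -0.093 to 0.14 for Slc25a1, -0.086 to 0.023 for Slc25a13, -0.15 to 0.12 for Slc25a5, -0.037 to 0.27 for Slc39a14, -0.19 to 0.031 for Slc4a4 and -0.015 to 0.088 for Slc5a6. In ChHAYW against Ch they were -0.039 to 0.19 for Slc25a1, -0.061 to 0.26 for Slc38a3, -0.00041 to 0.30 for Slc39a14 and -0.034 to 0.22 for Slc7a2.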
